A study of Arabidopsis thaliana with 12 samples.

Results

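Roots of the Arabidopsis thaliana double mutant arr10 arr12 were compared with wild-type roots while both received trans-zeatin, a natural cytokinin. The comparison holds 6 of the 12 arrays of the study: 3 arrays of arr10 arr12 with trans-zeatin, titled TZ, and 3 arrays of wild-type Col-0 with trans-zeatin, whose titles read CK while their source and treatment labels name trans-zeatin. The mutant is given by the stock codes SALK_098604 and SALK_054752, and the other 6 arrays are of both genotypes with the solvent DMSO. All plants had been raised for 2 weeks upright on agar, and the RNA of each array was hybridised to the Affymetrix ATH1 chip. The labels name roots as the tissue although the extraction text speaks of seedlings, and they state neither a dose nor a treatment time. They also do not say whether the replicates came from separate plants, so the p-values cover only the variation among arrays, which may be technical.

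Cytokinin is perceived by histidine kinase receptors and the signal passes along a phosphorelay to response regulators in the nucleus. ARR10 and ARR12 are type-B response regulators, which bind DNA and switch on the target genes of the hormone. Type-A response regulators are among those targets and damp the signal. In roots, cytokinin limits meristem size and lateral root formation, and in shoots and seedlings it promotes plastid development and anthocyanin pigments.

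The values were signals on a linear scale, alike in scale on all arrays (trimmed mean 99.3 to 99.4), and correlations of log2 values across probe sets were 0.976 to 0.991 within and 0.976 to 0.982 between the 2 genotypes under trans-zeatin. Differences are given as log2 of signal plus an offset of 6.65, arr10 arr12 minus wild type, with the SE, and the offset makes the differences of dim genes too small. No probe set with an annotation entry stood for ARR10 or ARR12, so the lesions could not be checked, and the probe sets for them were not looked for among those without an entry. Of the root markers, EXPA7 and EXPA18 had an annotated probe set (2 of 22), and their summed signal was 162 to 185 in arr10 arr12 and 169 to 195 in wild type.

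Between the genotypes, 316 of 13647 tested probe sets (2.32%) differed under trans-zeatin at an adjusted p below 0.05 (limma, Benjamini-Hochberg over all tested probe sets). In arr10 arr12, 121 were higher (0.887%) and 195 lower (1.43%). At least a 2-fold difference was reached by 48 of them, 13 higher and 35 lower. On all 316, the 3 mutant arrays lay wholly above or wholly below the 3 wild-type arrays, as they did for 8.54% (above) and 9.71% (below) of all tested probe sets. Such separation is thus no further support for any of these calls, here or below. The median difference was 0.59 for the higher and -0.66 for the lower probe sets, against 0.0023 over all tested probe sets. With the replicate number as a block, 484 passed, 188 higher and 296 lower. Without wild-type trans-zeatin array 1, 2 or 3, 201, 156 or 199 passed. A single gene in the annotation stood behind 150 of the 316, with 65 higher and 85 lower, while 161 had no entry and are known by identifier alone. The adjusted p was 0.0498 for the last probe set inside the threshold and 0.050 for the first ones outside it, BGLU16, a beta-glucosidase gene, among them.

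**Figure D1:**
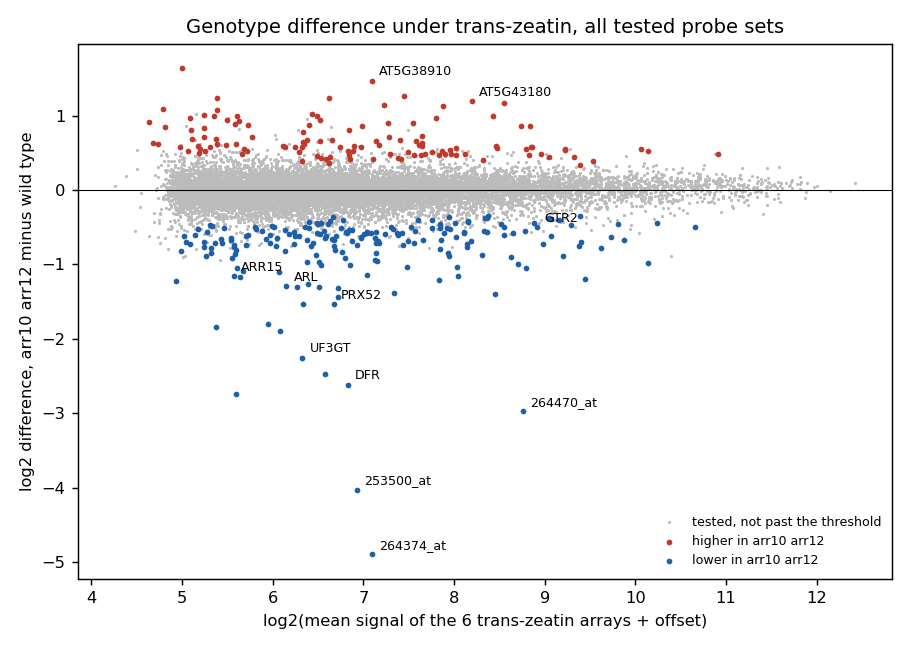
Each point is a tested probe set, with the log2 of its mean signal plus offset over the 6 trans-zeatin arrays on the horizontal axis and the log2 difference, arr10 arr12 minus wild type, on the vertical axis. Red points are the 121 higher and blue points the 195 lower probe sets, and the differences beyond 2 log2 units, DFR and UF3GT among them, all lie on the lower side.

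Late genes of anthocyanin synthesis held the largest differences among the tested genes with a name. DFR encodes dihydroflavonol reductase, the enzyme that commits flavonoids to the anthocyanin branch. Its signal was 23.8, 22.5 and 29.3 on the 3 arr10 arr12 arrays, against 208, 191 and 168 on the 3 wild-type arrays. The mutant mean was 13.4% of that of wild type, a log2 difference of -2.62 ± 0.19 (adjusted p = 6.5e-07). UF3GT, which encodes a glycosyltransferase that adds a sugar to anthocyanins, had 22, 25.5 and 15.4 in arr10 arr12 and 165, 114 and 99.3 in wild type (-2.26 ± 0.25, adjusted p = 8.1e-05). No mutant array reached the lowest wild-type array for either gene. AT4G14090, an anthocyanin glucosyltransferase gene, had 22.3, 12.2 and 29 in arr10 arr12 and 113, 92 and 62.2 in wild type (-1.80 ± 0.24, adjusted p = 8.2e-04). The role of this gene, like that of the other genes given by locus alone, is general knowledge and not in the reference. The roots are mixed tissue, so fewer cells that express a gene and less RNA per cell cannot be told apart in these or the following values.

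The list of late anthocyanin genes had 2 members tested, DFR and UF3GT, and both were lower, with a median of -2.44. A further member, AT5MAT, which encodes a malonyltransferase acting on anthocyanins, lay below the filter on dim probe sets, which required a mean signal above 23.5 over the 12 arrays. Its signal was 5.33, 4.55 and 7.21 in arr10 arr12, against 30.2, 30.5 and 20.7 in wild type. In the fit without the filter, where 270 of 22746 probe sets passed (1.19%), 0.444% of all higher and 0.743% lower, AT5MAT was lower, with a difference of -1.44 ± 0.17 (adjusted p = 0.0011). JRG21, a jasmonate-regulated gene of the 2-oxoglutarate oxygenase family chosen after its values were seen, was lower there too. It had 3.78, 4.42 and 11.1 in arr10 arr12 and 29.6, 28.9 and 28.2 in wild type (-1.49 ± 0.28, adjusted p = 0.02). That call was lost in 5 of 19 further settings, each without 1 trans-zeatin array (adjusted p up to 0.090). The early flavonoid list differed in its members. UGT78D1, which attaches rhamnose to flavonols, was lower, with 31.5, 40.6 and 31.2 in arr10 arr12 and 62.5, 48.5 and 58.2 in wild type (-0.62 ± 0.12, adjusted p = 0.0092, and 0.059 without wild-type trans-zeatin array 1). UGT78D2, which attaches glucose to flavonols and anthocyanins, and the chalcone isomerase-like gene CHIL did not pass, at 0.21 and -0.05, and their arrays overlapped.

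Both type-A response regulators with a named probe set were lower in the mutant. ARR15, a negative regulator of cytokinin signalling that cytokinin itself induces, had 24, 25.1 and 18.6 in arr10 arr12, against 71, 62.9 and 43.7 in wild type, 38.1% of the wild-type mean. The difference was -1.16 ± 0.17 (adjusted p = 0.0015). ARR16, of the same class and listed as RR16, lay below the filter. Its signal was 4.56, 9.43 and 9.06 in arr10 arr12 and 63.8, 71.7 and 61.3 in wild type, 11.7% of the wild-type mean, and its difference without the filter was -2.35 ± 0.22 (adjusted p = 1.2e-04). Neither gene's groups overlapped, and ARR16 passed in all 19 further settings run without the filter, with values from -2.99 to -1.30. Other type-B regulators with an annotated probe set were ARR18, ARR19 and ARR23. Their mean signals were 0.568, 1.83 and 1.08 in arr10 arr12 and 3.53, 0.986 and 0.443 in wild type, too dim to be tested. The cytokinin glucosyltransferase genes, which inactivate the hormone, were UGT76C2 and UGT76C1. UGT76C2 had 129, 128 and 92 in arr10 arr12 and 161, 169.7 and 164 in wild type without passing (-0.50, adjusted p = 0.13), and UGT76C1 did not pass either (0.08).

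**Figure D2:**
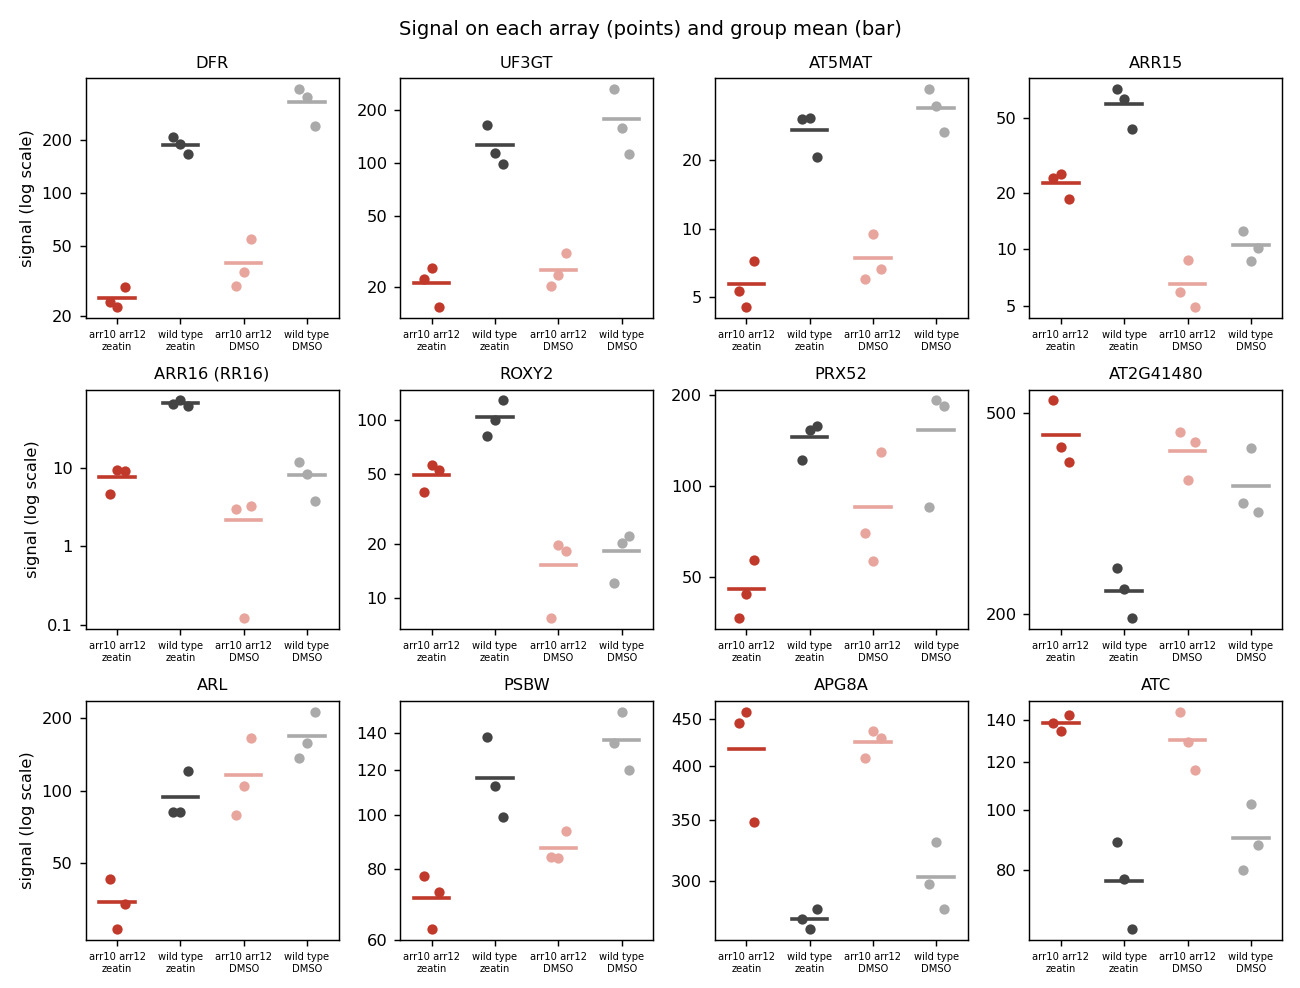
Each panel shows the signal of 1 gene on a log axis, with a point per array and a bar at the mean of the 3 arrays, for arr10 arr12 and wild type with trans-zeatin and then with DMSO. DFR, UF3GT and AT5MAT are low in the mutant in both treatments, while the wild-type trans-zeatin arrays stand above the 9 others for ARR15, ARR16 and ROXY2 and below them for AT2G41480.

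Genes of the CC-type glutaredoxins, small thiol oxidoreductases found in land plants, were among the lower ones. ROXY2 had 39.2, 56.2 and 52.6 in arr10 arr12, against 81.1, 100.2 and 129 in wild type, 47.7% of the wild-type mean. Its difference of -0.96 ± 0.23 passed narrowly (adjusted p = 0.033) and was lost in 8 of 22 other settings, among them without each single mutant trans-zeatin array, without wild-type trans-zeatin array 2 or 3, and without wild-type DMSO array 2 (adjusted p up to 0.16). With the replicate block its adjusted p was 4.7e-04. AT4G15680, a glutaredoxin gene of the same class, had 45.4, 26.4 and 31.8 in arr10 arr12 and 74.8, 154 and 114 in wild type (-1.53 ± 0.25, adjusted p = 0.0033). AT2G30540, another gene of the class below the filter, had 7.68, 8.17 and 10.3 in arr10 arr12 and 27.7, 30.3 and 35.1 in wild type (-1.29 ± 0.13 without the filter, adjusted p = 2.8e-04). AT4G15690, also of the class and below the filter, passed there at -0.73 ± 0.16 (adjusted p = 0.041). It was lost in 13 of 19 further settings, which include leaving out any single trans-zeatin array (adjusted p up to 0.19). Similar sequences, such as AT4G15680 and AT4G15690 may have, can share signal, which was not resolved here. AT2G30540 and AT4G15690 were chosen after their values were seen. In ROXY2, AT4G15680 and AT2G30540 every mutant array was below every wild-type array. Of the list's 2 tested members, ROXY2 was lower and GRX480, a glutaredoxin linked to salicylic acid responses, did not pass, with 135, 52.7 and 70.2 in arr10 arr12 and 87.1, 92.1 and 90.1 in wild type (-0.16).

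Genes of growth and of regulation were among the lower ones. ARL, an ARGOS-like gene that promotes cell expansion, had 42.8, 26.7 and 33.8 in arr10 arr12, against 81.4, 81.3 and 120.3 in wild type (-1.29 ± 0.23, adjusted p = 0.0052). The basic helix-loop-helix factor gene AT4G25410 had 33.6, 39.4 and 34.9 in arr10 arr12 and 93.2, 78 and 84.3 in wild type (-1.11 ± 0.15, adjusted p = 8.9e-04). Both genes kept their groups apart, as all 316 calls did. AT3G10040, or HRA1, a transcription factor that restrains the low-oxygen response, had 13.8, 19.9 and 28.2 in arr10 arr12 and 45, 47.6 and 36.5 in wild type (-0.89 ± 0.19, adjusted p = 0.016). HRA1 was lost in 4 of 21 other settings, each without 1 array: mutant trans-zeatin array 1 or 2 or wild-type trans-zeatin array 1 or 2 (adjusted p up to 0.091). The other tested low-oxygen gene, the pyruvate decarboxylase gene PDC2, did not pass (-0.22). Hsp70-2, a chaperone gene, chosen after its values were seen, was lower (-0.68 ± 0.11, adjusted p = 0.0025), with means of 103 ± 12.3 in arr10 arr12 and 169 ± 6.97 in wild type (SD, n = 3 each).

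Class III peroxidases, secreted enzymes that act on hydrogen peroxide and phenolics in the cell wall, differed in both directions. PRX52, linked to lignin formation, had 36.8, 44 and 56.9 in arr10 arr12, against 122, 154 and 158 in wild type (-1.54 ± 0.28, adjusted p = 0.0064). AT2G41480, or PRX25, had 529, 429 and 400.1 in arr10 arr12, against 247, 224 and 197 in wild type (1.00 ± 0.13, adjusted p = 6.4e-04). The mutant arrays were thus all below wild type for PRX52 and all above it for PRX25. These 2 were the calls among 6 tested peroxidases that the reference names as such (median -0.09), and the other 4, which include the strongly expressed PRXR1, lay between -0.28 and 0.12. Further peroxidase genes, given by locus alone and taken only from those past the threshold, were lower or higher. How many such genes were tested was not counted. AT5G64110 was lower (7.62, 10.8 and 17.5 in arr10 arr12, 35.3, 34.9 and 37.2 in wild type, difference -1.22 ± 0.22). AT4G33420 was higher (732, 473 and 354 in arr10 arr12, 246, 202 and 207 in wild type, difference 1.17 ± 0.18). AT5G06730 (-1.32 ± 0.21), AT2G39040 (-0.81 ± 0.17) and AT1G71695 (-0.49 ± 0.12) were lower, and AT5G15180 was higher (1.02 ± 0.18). Of these, AT2G39040 and AT1G71695 were chosen after their values were seen. AT2G39040 was lost in 3 of 21 other settings, without mutant trans-zeatin array 2 or wild-type trans-zeatin array 1 or 2 (adjusted p up to 0.079). AT1G71695 was lost in 7 of 22, among them without mutant trans-zeatin array 2 or 3, wild-type trans-zeatin array 1 or 2 or wild-type DMSO array 2 (adjusted p up to 0.16).

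Genes of the nitrate and peptide transporter family (NPF) were among the lower ones. AT3G45680 had 132, 119.7 and 142 in arr10 arr12, against 274, 323 and 338 in wild type (-1.20 ± 0.10, adjusted p = 7.7e-06), and AT3G45700 had 115, 104 and 113 in arr10 arr12, against 205, 237 and 262 in wild type (-1.04 ± 0.14, adjusted p = 9.0e-04). Probe sets of similar genes can share signal, which these files do not resolve. GTR2, an importer of glucosinolates into cells, had 411, 383 and 391 in arr10 arr12 and 561, 571 and 548 in wild type (-0.50 ± 0.08, adjusted p = 0.0036). The mutant arrays of these genes were all below those of wild type, and GTR2 passed in all 22 other settings. AT1G72140, a family member given by locus alone and chosen after its values were seen, was lower too (-0.76 ± 0.17, adjusted p = 0.028). It was lost in 5 of 22 other settings (adjusted p up to 0.12). These were no filter and leaving out mutant trans-zeatin array 1 or 2 or wild-type trans-zeatin array 2 or 3. The list of NPF genes had 8 tested members that the reference names as such, which leaves out AT3G45680, AT3G45700 and AT1G72140. On it GTR2 was the 1 that passed, and all 8 differences were below 0 (median -0.23, the other 7 from -0.35 to -0.07). Of all tested probe sets, 49.5% were below 0. The list was drawn up with earlier results of these data known, so no comparison is drawn from that share. GTR1, the partner of GTR2, was at -0.28 with overlapping arrays. UGT74B1, which adds glucose in glucosinolate synthesis, was lower (-0.40 ± 0.09, adjusted p = 0.031), with 482, 531 and 442 in arr10 arr12 and 638, 655 and 629.6 in wild type. That call was lost in 7 of 22 other settings, among them without mutant trans-zeatin array 1 or 3 and without each single wild-type trans-zeatin array (adjusted p up to 0.13).

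AT2G40230, which encodes an acyltransferase of the BAHD family and was chosen after its values were seen, had 86.3, 108 and 107 in arr10 arr12, against 182, 172 and 149.6 in wild type (-0.71 ± 0.12, adjusted p = 0.0039). The strictosidine synthase-like gene AT3G57010 had 505, 512 and 264 in arr10 arr12 and 791, 1010.4 and 1051 in wild type (-1.19 ± 0.23, adjusted p = 0.0094, and 0.054 without wild-type trans-zeatin array 2). Mutant array 3 was the lowest of the 6, and all 3 mutant arrays were below those of wild type. XTH32, a xyloglucan endotransglucosylase gene for wall remodelling, had 96.7, 80.7 and 98.8 in arr10 arr12 and 157, 133 and 148 in wild type (-0.63 ± 0.12, adjusted p = 0.0073). It was the 1 call among 7 tested members of its list (median -0.26, 6 of 7 below 0, against 49.5% of all tested probe sets). That list too was drawn up with earlier results of these data known, so no comparison is drawn from that share. With the replicate block XTH18 passed too (-0.45, adjusted p = 0.09 without and 0.019 with the block). Of 11 tested expansins, proteins that loosen the wall, none passed (limma, median -0.05), although EXPA15 passed with the block (-0.34, adjusted p = 0.082 without and 0.047 with it). Of 8 tested beta-glucosidases none passed (median -0.26), and BGLU16 passed with the block (-0.49, adjusted p = 0.034). The rule for naming genes also gave AT5G19110 (-1.03) as lower, whose role the reference does not state.

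Of 7 tested nuclear genes for photosynthesis, 2 were lower and 5 did not pass. PSBW, a subunit of photosystem II, had 78, 62.7 and 73.1 in arr10 arr12, against 138, 112 and 99.4 in wild type (-0.65 ± 0.12, adjusted p = 0.0087, and 0.052 without wild-type trans-zeatin array 1). RCA, which encodes rubisco activase, had 146, 139 and 152 in arr10 arr12 and 224, 206 and 197 in wild type (-0.50 ± 0.11, adjusted p = 0.026), a call lost without mutant trans-zeatin array 1 or 2 and without each single wild-type trans-zeatin array (adjusted p up to 0.12). All 7 members of the list were below 0 (median -0.44), as were 49.5% of all tested probe sets. The list was drawn up with earlier results of these data known, so no comparison is drawn from that share. The other 5, among them the antenna protein genes LHCB4.1 (-0.34) and LHCB4.2 (-0.43), did not pass. HPR, the hydroxypyruvate reductase of photorespiration, had 47.4, 34.6 and 40.4 in arr10 arr12 and 80.5, 64.8 and 67.8 in wild type (-0.72 ± 0.13, adjusted p = 0.0058). ALDH11A3, a glyceraldehyde-3-phosphate dehydrogenase gene, had 28.5, 24.1 and 29.7 in arr10 arr12 and 61.1, 55.3 and 48.7 in wild type (-0.85 ± 0.14, adjusted p = 0.0033). Both were chosen after their values were seen, passed in all 22 other settings, and had no overlap between groups. The chlorophyll synthesis genes PORB and CHLM did not pass, at -0.33 and 0.04. Of the shoot markers, RCA, PSAN, LHCB4.1 and LHCB4.2 had an annotated probe set (4 of 27), with a summed signal of 433 to 472 in arr10 arr12 and 600 to 631 in wild type under trans-zeatin, and none of the 4 was at 0. Of 56 tested probe sets of plastid genes, 0 passed under trans-zeatin, against 2.05% of all tested single-gene probe sets. The next plastid genes were picked after their values were seen. How many of the 56 passed under DMSO, where 5% of all tested probe sets passed, was not counted. Under DMSO, rbcL, psaA, psbC, psaI and rpl14 were higher in arr10 arr12 (0.53, 0.71, 0.59, 0.62 and 0.66, limma, adjusted p from 0.018 to 0.043). There psbF and rpl32 did not pass (-0.01 and -0.10). RNA from green tissue was not measured on its own, and its part in the result was not tested.

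Auxin genes differed one by one. GH3.3, which conjugates auxin to amino acids and so inactivates it, had 27.4, 21.5 and 24.5 in arr10 arr12, against 15.8, 12.9 and 11.4 in wild type (0.64 ± 0.16, adjusted p = 0.044). The groups did not overlap, but the call was lost in 12 of 21 other settings, which include leaving out any single trans-zeatin array of either genotype, mutant DMSO array 1 or 2 or wild-type DMSO array 2 (adjusted p up to 0.17). Of the other tested GH3 genes, GH3.17 (0.04) and WES1, also known as GH3.5 (0.01), did not pass. YUC6, an enzyme of auxin synthesis chosen after its values were seen, was lower, with 22.1, 20.6 and 26.5 in arr10 arr12 and 34.4, 32.5 and 40.7 in wild type (-0.52 ± 0.12, adjusted p = 0.023). YUC6 was lost in 5 of 21 other settings, among them without mutant trans-zeatin array 1 or 2 or wild-type trans-zeatin array 1 or 3 (adjusted p up to 0.13). LBD16, a factor of lateral root initiation, had 29.6, 30.6 and 28.2 in arr10 arr12 and 22.6, 20.1 and 21.6 in wild type and did not pass (0.36 ± 0.11, adjusted p = 0.11).

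Genes higher in arr10 arr12 showed smaller differences, and most of the leading ones have no symbol. The germin-like gene AT5G38910 led them, with 252, 195 and 138 in arr10 arr12, against 69.7, 54.3 and 70.1 in wild type (1.47 ± 0.22, adjusted p = 0.0016). AT1G49470 had 199, 260.4 and 262 in arr10 arr12 and 92.2, 89.6 and 106 in wild type (1.26 ± 0.12, adjusted p = 1.6e-05). AT1G31050 was read by 2 probe sets, which gave 1.23 ± 0.13 and 1.14 ± 0.14 and so agreed within their errors. The lipid-transfer family genes AT4G12500 and AT4G12490 were both higher. AT4G12500 had 53.7, 52.4 and 43.6 in arr10 arr12 and 19.8, 16 and 25.5 in wild type (1.07 ± 0.14), and AT4G12490 had 68, 54.8 and 51.4 in arr10 arr12 and 22.8, 22.9 and 32 in wild type (0.99 ± 0.16). Similar sequences may again share signal. The GDSL lipase gene AT1G29660 (0.99 ± 0.17) and the phosphoethanolamine methyltransferase gene AT1G73600 (0.97 ± 0.15) were higher, the first acting on lipids and the second in the synthesis of phosphocholine. AT5G43180 (1.2), the peroxidase gene AT5G15180, AT5G48430 (0.97), AT5G43520 (0.94) and AT4G30460 (0.90) completed the genes named by the rule.

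Smaller rises were seen in genes with a known role, chosen here after their values were seen. ATC, a relative of FT that delays flowering, had 139, 135 and 143 in arr10 arr12, against 88.8, 77.5 and 64.1 in wild type (0.81 ± 0.12, adjusted p = 0.0016). APG8A, or ATG8A, a ubiquitin-like protein of the autophagosome membrane, had 446, 459 and 348 in arr10 arr12, against 273, 266 and 280.3 in wild type (0.59 ± 0.10, adjusted p = 0.0051). Both passed in all 22 other settings. ATG8A was the 1 call among 11 tested autophagy genes (median 0.05), and the other 10, of which 8 are ATG8 genes, ranged from -0.12 to 0.14. PDF2.1, a defensin gene, had 552, 533 and 473 in arr10 arr12 and 399, 381 and 343 in wild type (0.47 ± 0.09, adjusted p = 0.012, and up to 0.076 without mutant trans-zeatin array 2 or wild-type trans-zeatin array 2 or 3). RALFL27, of a family of secreted signalling peptides, had 113, 102 and 109 in arr10 arr12 and 78.5, 75.7 and 77.4 in wild type (0.45 ± 0.09, adjusted p = 0.01, and 0.059 without wild-type trans-zeatin array 2).

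Many gene families held no call. None of the 13 tested glutathione S-transferases (median -0.03), 6 WRKY factors (0.08), 5 basic helix-loop-helix factors named as such (0.08), 6 plant U-box proteins (-0.04), 4 calcium-binding CML proteins (-0.0006), 4 cell cycle genes (0.07), 3 root hair genes (-0.05) or 3 touch and wound genes (-0.0018) passed in limma. Of the UGT glycosyltransferases that the reference names as such, which leaves out AT4G14090, 3 of 23 were lower, UF3GT, UGT78D1 and UGT74B1, none was higher, and the median was -0.02. Of 8 tested cytochromes P450, CYP84A4, which acts in the synthesis of pyrone metabolites from phenolics, was lower (-0.60 ± 0.13, adjusted p = 0.023), a call lost in 5 of 22 other settings, among them without mutant trans-zeatin array 1 or 2 or wild-type trans-zeatin array 1 or 3 (adjusted p up to 0.12). Over all lists, 17 of 159 distinct tested members passed, 4 higher and 13 lower. Since the lists were drawn up with earlier results of these data known, that share of 10.7% is not set against the 2.32% of all probe sets.

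**Figure D3:**
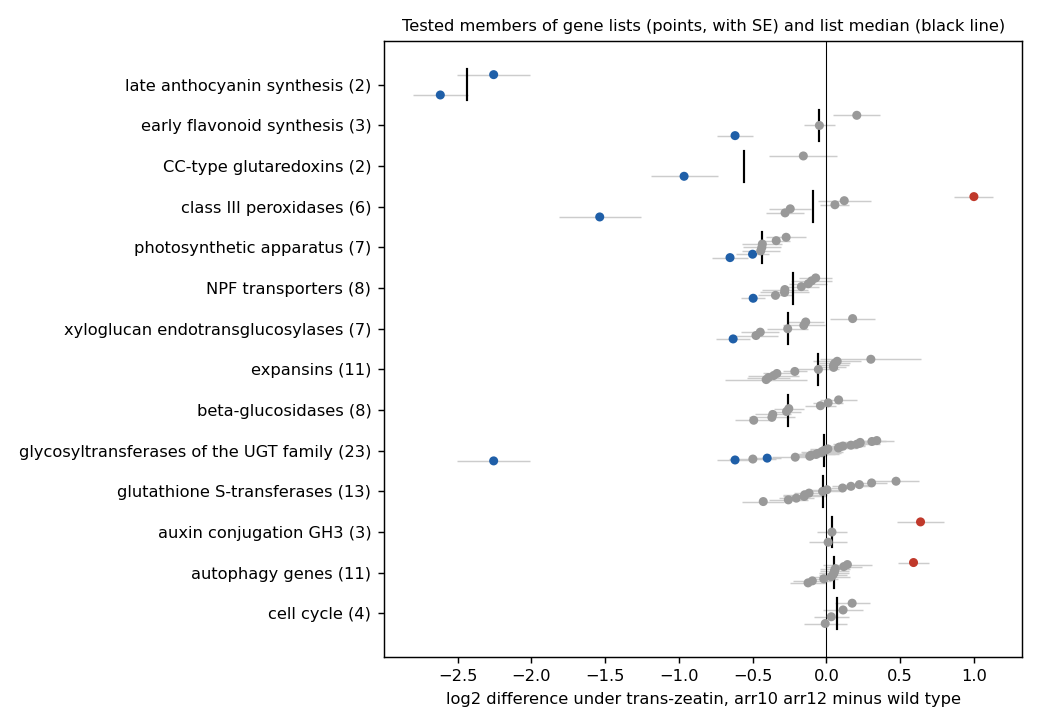
For 14 gene lists, each point is a tested member at its log2 difference under trans-zeatin, arr10 arr12 minus wild type, with a grey bar for its SE and a black line at the list median; red and blue mark members past the threshold as higher and lower, and the number of tested members is in parentheses. The late anthocyanin genes lie near -2.4, all 7 photosynthesis and all 8 NPF genes lie left of 0, and the peroxidases spread from -1.54 to 1.00. The lists were drawn up with earlier results of these data known, so no comparison is drawn from these positions.

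Some of the largest differences belonged to probe sets with no gene name. Probe set 264374_at had 1.46, 4.61 and 0.828 in arr10 arr12, against 235, 248 and 289 in wild type (-4.90 ± 0.15), and 253500_at had 6.1, 8.14 and 7.97 in arr10 arr12, against 243, 220.4 and 206 in wild type (-4.03 ± 0.13). The mutant signal of the first lay below the offset on every array, so its difference is too small on this scale. Probe set 264470_at had 90.9, 88.8 and 94.3 in arr10 arr12 and 762, 824 and 705 in wild type (-2.97 ± 0.15). On the higher side the leading ones were 254550_at (1.64 ± 0.21), 265468_at (1.24 ± 0.16) and 255127_at (1.12 ± 0.11).

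The genotype difference under DMSO, which shares no array with that under trans-zeatin, was set beside it. Under DMSO 682 probe sets passed (5%), 276 higher (2.02%) and 406 lower (2.98%) in arr10 arr12. Both treatments called 123 probe sets, 30 higher and 93 lower in both and 0 in opposite directions, which is 38.9% of the trans-zeatin calls and 18.0% of the DMSO calls. Of the 316 trans-zeatin calls, 277 had the same sign under DMSO, against 59.1% of all tested probe sets. Those lower under trans-zeatin had a median difference of -0.48 under DMSO, and those higher had 0.30. The remaining 193 trans-zeatin calls, 91 higher and 102 lower, did not pass under DMSO, which by itself does not show a different size there.

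The anthocyanin genes were low in the mutant in both treatments. DFR averaged 39.9 ± 13.1 in arr10 arr12 and 329 ± 77.5 in wild type under DMSO (SD, n = 3 each), a difference of -2.86, and AT5MAT differed by -1.53 without the filter. The nuclear photosynthesis genes of the list were lower under DMSO as well, 7 of 7 past the threshold with a median of -0.60. Over all tested probe sets the median was 0.025. This list too was drawn up with earlier results of these data known, so no comparison is drawn from that median. The shoot marker sum was 453 to 508 in arr10 arr12 and 668 to 807 in wild type. The root marker sum was also lower under DMSO, 164 to 206 in arr10 arr12 and 223 to 315 in wild type, with EXPA7 at -0.55 (adjusted p = 0.035) and EXPA18 at -0.49 (adjusted p = 0.036). AT4G15680 differed by -0.19 under DMSO (adjusted p = 0.72), with means of 19.8 ± 4.86 in arr10 arr12 and 24.1 ± 10.4 in wild type. AT3G57010 differed by -0.02 (adjusted p = 0.97), with 360.3 ± 84.4 in arr10 arr12 and 368 ± 97.6 in wild type. PRX25 differed by 0.23 (adjusted p = 0.33) and ARR15 by -0.38 (adjusted p = 0.22). Of the 15 lower and 15 higher probe sets that the rule named, 6 and 7 were also called under DMSO, and all 30 had the same sign there. For none of these 30 did the interaction, the difference between the 2 genotype differences, pass (AT3G45680 came nearest, at -0.85 with adjusted p = 0.062).

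**Figure D4:**
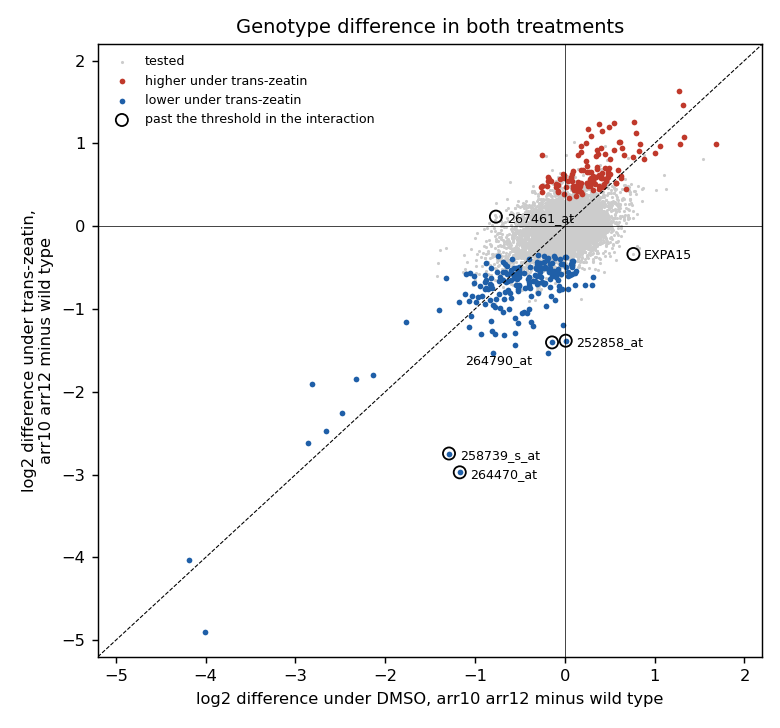
Each point is a tested probe set, with its log2 difference (arr10 arr12 minus wild type) under DMSO on the horizontal and under trans-zeatin on the vertical axis; the dashed line marks equal values and open circles mark the 6 probe sets past the threshold in the interaction. Most red and blue points keep the sign they have under DMSO, DFR and UF3GT lie near the dashed line, and 264470_at, 258739_s_at, 252858_at and 264790_at lie below it.

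In the interaction 6 of 13647 probe sets passed (0.044%), 1 above 0 and 5 below (0.0366%), and 1476 had an unadjusted p below 0.05. EXPA15, the one with a gene name, encodes an expansin. Its signal under trans-zeatin was 785, 790.4 and 896 in arr10 arr12, against 932, 1072 and 1123 in wild type. Under DMSO it averaged 698 ± 28.2 in arr10 arr12 and 409 ± 36.8 in wild type. The mutant was thus lower under trans-zeatin (-0.34 ± 0.09, adjusted p = 0.082, not past the threshold) and higher under DMSO (0.76, adjusted p = 3.8e-04), and the difference between the 2 was -1.10 (adjusted p = 0.0031).

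Genes next to each other on the chromosome were paired by their order in the TAIR10.1 reference. Of 2157 adjacent pairs of tested genes, 91 held a call and 4 of these held 2, where 2.05% of all tested single-gene probe sets passed. Whether neighbours share calls more or less often than other genes was not tested. AT4G30450 (0.58 ± 0.12) and AT4G30460 (0.90 ± 0.15) were both higher. AT1G60000 (-0.65 ± 0.12) and AT1G60010 (-0.57 ± 0.13) were both lower. PRX25 was higher beside GPT, a gene of N-glycan precursor synthesis, which was lower (-0.42 ± 0.10, adjusted p = 0.045). AT1G28100 was lower (-0.94 ± 0.13) beside the carboxypeptidase-like gene SCPL45, which was higher (0.49 ± 0.10). GPT was lost in 12 of 22 other settings (adjusted p up to 0.17): with no filter, with quantile normalization, with the 6 trans-zeatin arrays alone, and without any single trans-zeatin array but mutant array 1, any mutant DMSO array or wild-type DMSO array 2. AT1G60010 was lost in 6 (adjusted p up to 0.16), with no filter and without any single trans-zeatin array but mutant array 1. SCPL45 and AT4G30450 were lost without wild-type trans-zeatin array 2, SCPL45 also without array 3 of wild type and AT4G30450 without array 2 of the mutant (adjusted p up to 0.091 and 0.074).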

How the data were processed

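ATH1 arrays of arr10 arr12 and wild-type roots, with trans-zeatin or DMSO, gave 3 arrays per group. The values are intensities (signals on a linear scale) as deposited, made with MAS5 and GCOS per the submitters' processing notes; no versions of these are given in the sources used here. Of 22810 probe sets, 64 controls were left out and 22746 used, and 13647 had a mean signal above the 40th percentile (23.5) and were tested. Gene names came from a match of the platform annotation to the TAIR10.1 reference: 13513 probe sets had 1 gene, 503 several and 8730 no entry. log2(signal + 6.65), the 25th percentile as offset, was fitted with limma 3.58.1 in R 4.3.3 on all 12 arrays, with 1 mean per group, a trended moderation and Benjamini-Hochberg adjustment at 0.05, after tests on simulated data. The number of arrays limits the precision, and the offset limits what dim signals show.

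The genes named are the 15 largest changes each way among called probe sets with 1 gene and groups that do not overlap, the 3 largest each way among probe sets with no gene name, list members, and interaction calls. Adjacent genes that both passed are named too. Further genes were chosen after their values were seen and are marked so where they are given. The comparison, the lists and the members were chosen with earlier results of these data known. The labels number the arrays 1 to 3 in each group. Under trans-zeatin, the deviations of same-numbered arrays of the genotypes from their group means had small correlations of 0.137, 0.156 and 0.136. Differently numbered arrays were not set beside them, so these values do not show a pairing. The main fit left the numbers out, and the replicate block took them as pairing. The alternatives covered the offset, filter, normalization, arrays fitted, block, moderation, array weights and each array left out. Filtering on the mean of log2 values, and running the other alternatives without a filter for dim genes, were added after seeing the data. No sequences are shown.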

Additional observations from a re-analysis of the deposited data

Results flagged for a closer look

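For 6 probe sets the genotype difference under trans-zeatin differed from that under DMSO by the interaction test (limma, adjusted over all 13647 tested probe sets). Probe set 264470_at had an interaction of -1.80 (adjusted p = 0.0031), with mean signals of 91.3 in arr10 arr12 and 764 in wild type under trans-zeatin, and of 47.9 in arr10 arr12 and 119 in wild type under DMSO. EXPA15, an expansin gene, had -1.10 (adjusted p = 0.0031), and its means were 824 in arr10 arr12 and 1043 in wild type under trans-zeatin. Probe set 252858_at had -1.39 (adjusted p = 0.0034), with mean signals of 83 in arr10 arr12 and 226 in wild type under trans-zeatin, and of 72.7 in arr10 arr12 and 71.6 in wild type under DMSO. Probe set 264790_at had -1.26 (adjusted p = 0.0034), with mean signals of 185 in arr10 arr12 and 499.5 in wild type under trans-zeatin, and of 114 in arr10 arr12 and 127 in wild type under DMSO. In all 4 the interaction was below 0, and it passed in all 21 other settings.

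Probe set 258739_s_at, which matches 2 genes, had -1.46 (adjusted p = 0.018) and was lost in 7 of 19 other settings, with mean signals of 5.82 in arr10 arr12 and 78 in wild type under trans-zeatin, and of 0.902 in arr10 arr12 and 11.8 in wild type under DMSO. Both mutant means lay below the offset of 6.65, and with an offset of 1 the interaction was -0.71 (adjusted p = 0.52), so its size rests on the offset. It was also lost with no filter and without mutant trans-zeatin array 1, wild-type trans-zeatin array 2 or 3, mutant DMSO array 3 or wild-type DMSO array 2. Only in wild type under trans-zeatin was its mean signal above the filter of 23.5, so this probe set was tested only through that group. The filters at the median and on the mean of log2 values left it out. The value above 0 was that of 267461_at at 0.88 (adjusted p = 0.018), lost in 9 of 21 other settings, with mean signals of 1433 in arr10 arr12 and 1323 in wild type under trans-zeatin, and of 1265 in arr10 arr12 and 2165 in wild type under DMSO. The cause of these differences was not tested.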

How the results depend on the processing

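With the replicate block, 484 probe sets passed under trans-zeatin, 188 higher and 296 lower in arr10 arr12, and all 150 single-gene calls were kept. The block gave 8 probe sets in the interaction and 934 under DMSO. Besides these counts and the genes given above, the pairing changed no other trans-zeatin call among the tested genes named here. Below the filter, AGL80 and AT5G22390 passed in the fit without the filter and were lost when the block was added to it. Leaving out single arrays gave 156 to 372 in all, 58 to 153 higher and 98 to 220 lower. The interaction count was 27 with array quality weights and 4 to 10 without single arrays (10 without trans-zeatin array 2 of the mutant). Under DMSO, 420 passed with no filter, 1321 with array quality weights and 168 to 909 without single arrays, with 168 and 176 without DMSO array 1 or 2 of the mutant and 215 and 236 without DMSO array 1 or 2 of wild type. The causes were not tested. Of the 150 single-gene calls, 66 passed in every one of the 22 settings in which they were tested, and 84 were lost in some. Of the 30 probe sets named by the rule, 28 passed in every setting in which they were tested. Alternative filters left some of these probe sets untested, so that ARR15 was tested in 20 settings and AT5G64110 in 21. In these settings 0 changed direction. The filter on the mean of log2 values, added after seeing the data, gave 309 calls. Dim signals are limited by the offset, and 3 arrays per group limit every value.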

Other observations

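Below the filter on dim probe sets, 26 single genes passed in the fit without it, 18 lower and 8 higher in arr10 arr12, chosen here after their values were seen. CYP78A9, a cytochrome P450 gene linked to organ growth, had 20.1, 18.8 and 14.2 in arr10 arr12, against 33.8, 30.4 and 31.6 in wild type (-0.67 ± 0.14, adjusted p = 0.035). That call was lost in 8 of 19 further settings, among them without each single wild-type trans-zeatin array (adjusted p up to 0.13). AT3G02480 had 31.1, 26.8 and 49.9 in arr10 arr12, against 14.4, 7.54 and 5.3 in wild type (1.44 ± 0.27, adjusted p = 0.021), a call lost in 5 of 19 further settings (adjusted p up to 0.11). AT1G48800 had 4.51, 5.14 and 6.01 in arr10 arr12, against 25, 16.1 and 17.6 in wild type (-1.13 ± 0.14, adjusted p = 0.0019). The last of these, with ARR16, AT5MAT and AT2G30540, made up the 4 that passed in all 19 further settings without the filter.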
